A study of Mus musculus with 6 samples.

Results

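The 38 genes described here encode the machinery that copies chromosomal DNA, from the licensing of origins to the supply of nucleotides, and were taken by symbol from the 54418 gene identifiers of the deposited count table. The rule names them by their function and uses no measured value, but the list was chosen with earlier results of these data known. All 38 were found, are protein-coding and lie on 15 chromosomes. Expression was measured by RNA sequencing of mammary epithelial cells that were isolated by FACS from 4-week-old C57BL/6 females, 3 Glis2+/+ and 3 Glis2-/-, with 1 library per mouse. The labels name no other allele and no treatment in either genotype. The mutation was carried in the germline, so that it was present in every cell of the animal and not only in the epithelium. The cells had been stained for TER-119, CD31, CD45, CD24 and CD49f, but the gates are not given in the sources used here, and the libraries held markers of both basal and luminal cells. The libraries held between 24996524 and 31393917 estimated counts, of which the 38 genes took between 29951 and 51390, or 0.110% to 0.179%. *Glis2* itself (ENSMUSG00000014303) stood at 21.7, 23.2 and 19.6 CPM in the Glis2+/+ libraries and 10.1, 17.0 and 16.3 CPM in the Glis2-/- libraries. Glis2-/- replicate 1 lay lowest and the genotypes did not overlap, but *Glis2* RNA was still present in each Glis2-/- library. It is not stated here which part of the gene is removed, so the genotypes rest on the labels. Nothing states that the mice came from separate litters, and p-values measure only the spread between these 6 samples.

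Replication is licensed in G1 phase, when the origin recognition complex with CDC6 and CDT1 loads the MCM helicase onto DNA, and geminin later blocks CDT1 so that origins fire once per cycle. At the start of S phase, MCM10, CDC45 and the GINS complex turn the loaded helicase into a moving fork, on which primase and the polymerases copy the strands, PCNA holds the polymerases, and FEN1 and LIG1 join the lagging strand. E2F transcription factors drive many of these genes as cells enter S phase, and in the pubertal mammary gland dividing cells are concentrated in the terminal end buds at the tips of the growing ducts.

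The replication genes stood at lower mean levels in Glis2-/- cells as a group, but none of them passed the test by itself. Levels are given as CPM, counts scaled to a common library size after normalization by edgeR's TMM method. The summed level of the 38 genes was 1665, 1798 and 1481 CPM in the Glis2+/+ libraries and 1197, 1144 and 1394 CPM in the Glis2-/- libraries. All 3 Glis2-/- libraries lay below all 3 Glis2+/+ libraries, and the Glis2-/- mean was 75.5% of the Glis2+/+ mean. The log2 fold change (Glis2-/- over Glis2+/+) was below 0 for 36 of the 38 genes, against 48.4% of the 21236 genes tested. Its median over the 38 genes was −0.40, against a median of 0.01 over all genes tested. Calls required an adjusted p of 0.05 or less in edgeR's quasi-likelihood test together with a log2 fold change of 0.58 or more in either direction. By that rule 0 of the 38 genes were called, and 0 of 21236 genes overall (0%). The adjusted p of the 38 genes lay between 0.906 and 0.997 in edgeR, and it was at least 0.158 in DESeq2, which called 0 of the 38 genes. Among the 37074 genes of the DESeq2 fit, 45 were called (0.121%), 9 of them in the lower direction (0.0243%). An unadjusted edgeR p of at most 0.05 was obtained for 17 of the 38 genes, each with a fold change below 0, where 5.32% of all genes had such a p and 2.33% had one with a fold change below 0. The number 17 depended on single mice. It was 9 without Glis2+/+ replicate 2, 10 without Glis2-/- replicate 1 or 2, 11 without Glis2+/+ replicate 1, 19 without Glis2-/- replicate 3 and 21 without Glis2+/+ replicate 3. The 3 Glis2-/- values lay below the 3 Glis2+/+ values for 17 of the 38 genes, against 5.5% of all genes, and in 0 of the 38 genes did they all lie above. In bulk RNA, fewer dividing cells and less of these transcripts per cell cannot be told apart.

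**Figure D1:**
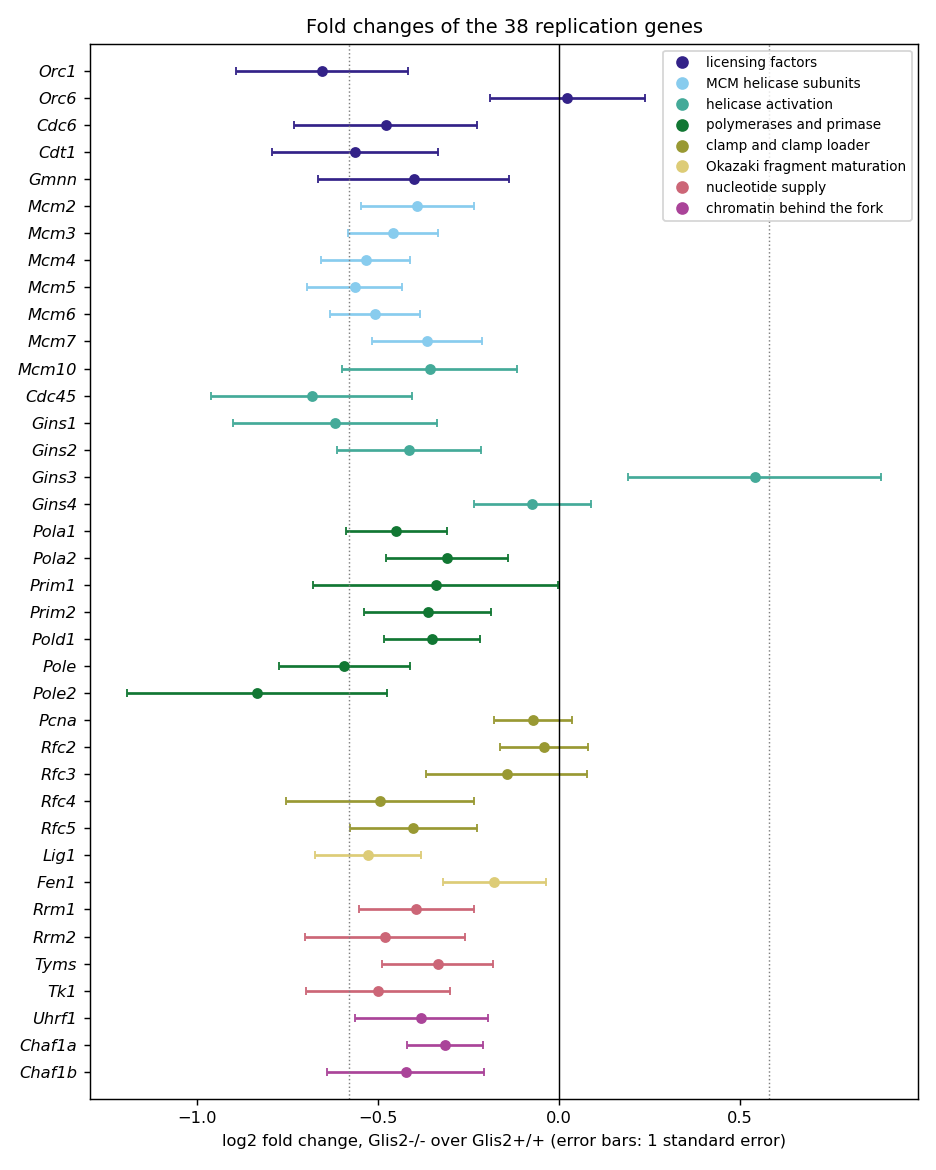
Log2 fold change of each of the 38 genes, Glis2-/- over Glis2+/+, on the horizontal axis, with bars of 1 standard error from edgeR, 3 mice per genotype. Colours mark the roles, the solid line is at 0 and dotted lines mark the fold threshold of 0.58 in each direction. Of the 38 points 36 lie below 0, from −0.83 for *Pole2*, and *Orc6* (0.02, but −0.21 on the log2(TPM + 1) scale) and *Gins3* lie above.

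The promoters of these genes held the binding motif of E2F factors more often than those of other genes, a feature that the list's rule did not use. RefSeq promoters on GRCm38.p6, from 250 bases before to 50 bases after a gene's start, were found for 30 of the 38 genes, and those of *Gmnn*, *Mcm4*, *Gins1*, *Gins2*, *Gins4*, *Prim2*, *Pole* and *Rfc2* were not in the table. The E2F motif was searched on both strands as TTTCCCGC, TTTGGCGC, TTTGCCGC and TTTCGCGC, words that can overlap one another. At least 1 promoter held such a word for 14 of the 30 genes (46.7%), against 4.22% of the 12564 tested genes with a promoter in the table. Counted per promoter, the word stood in 14 of 35 promoters of these genes (40.0%), in 3.50% of the 15935 promoters of tested genes and in 2.26% of all 32851 promoters of the same length. The words contain CpG, and the median number of CpG was 21 per promoter for the replication genes, 18 for the tested genes and 7 for all promoters. The CCAAT motif (CCAAT on either strand) was found for 18 of the 30 genes (60.0%) and for 42.4% of the tested genes. The fold change had a median of −0.47 on the log2 scale for the 14 genes with an E2F word and −0.37 for the 16 genes without one, with 13 and 15 genes below 0. A word in these windows is a description of the sequence, and no binding was measured.

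In 5 roles the gene of highest mean CPM had an E2F word, and the promoters of the 4 of these with the highest CPM are printed here to show where the word stands. The other one, *Cdt1*, had its word 32 bases after the start and is not printed. The sequences are written 5′ to 3′ on the strand of the gene, in lower case, with the E2F words in capitals.
Mcm6, chr1:128359656-128359955, minus strand: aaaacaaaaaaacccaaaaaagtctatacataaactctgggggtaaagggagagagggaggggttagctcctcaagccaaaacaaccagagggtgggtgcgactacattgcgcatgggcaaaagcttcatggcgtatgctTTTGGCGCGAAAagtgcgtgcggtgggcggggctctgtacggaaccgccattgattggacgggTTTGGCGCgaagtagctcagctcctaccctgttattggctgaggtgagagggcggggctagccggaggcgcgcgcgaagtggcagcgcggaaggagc
Lig1, chr7:13278576-13278875, plus strand: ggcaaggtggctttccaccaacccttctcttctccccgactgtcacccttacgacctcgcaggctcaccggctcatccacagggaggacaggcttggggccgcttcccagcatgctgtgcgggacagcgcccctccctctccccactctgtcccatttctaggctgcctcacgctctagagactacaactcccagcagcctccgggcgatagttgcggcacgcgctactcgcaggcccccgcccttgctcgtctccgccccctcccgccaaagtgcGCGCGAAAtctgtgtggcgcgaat
Uhrf1, chr17:56304063-56304362, plus strand: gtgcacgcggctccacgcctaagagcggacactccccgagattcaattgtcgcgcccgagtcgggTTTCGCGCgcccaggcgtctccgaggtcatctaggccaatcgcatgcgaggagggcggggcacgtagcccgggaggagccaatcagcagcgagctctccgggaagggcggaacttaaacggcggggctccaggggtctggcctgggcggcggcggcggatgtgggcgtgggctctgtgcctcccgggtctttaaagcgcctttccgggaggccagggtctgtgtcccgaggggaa
Pola1, chrX:93632106-93632405, minus strand: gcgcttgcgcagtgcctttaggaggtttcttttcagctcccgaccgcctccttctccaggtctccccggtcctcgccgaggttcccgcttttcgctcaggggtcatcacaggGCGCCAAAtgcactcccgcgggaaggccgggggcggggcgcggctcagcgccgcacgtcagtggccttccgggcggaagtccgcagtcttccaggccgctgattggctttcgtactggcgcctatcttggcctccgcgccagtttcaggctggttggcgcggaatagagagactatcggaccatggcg
In the *Mcm6* promoter 3 words were found, the first pair of which overlap in 1 run of capitals that begins 110 bases before the start, and the third begins 47 bases before it. The word of *Pola1* begins 138 bases and that of *Uhrf1* 185 bases before the start, and that of *Lig1* begins 26 bases after it. *Lig1* has 3 and *Uhrf1* has 2 promoters in the table, and the one with the word is shown.

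The 6 subunits of the MCM helicase, which form the ring that unwinds DNA ahead of the fork, all had a fold change below 0, and 6 of 6 had an unadjusted p of at most 0.05, against 2.33% of all genes with such a p and a fold change below 0. Their summed level was 560.1, 639.8 and 549.8 CPM in the Glis2+/+ libraries and 401, 385 and 471 CPM in the Glis2-/- libraries. *Mcm6* (ENSMUSG00000026355, chromosome 1, 128331590 to 128359664 of GRCm38), the subunit with the highest CPM, had 139, 171 and 128 CPM in the Glis2+/+ libraries and 105, 97.9 and 105 CPM in the Glis2-/- libraries. Each Glis2-/- value lay below each Glis2+/+ value, and the log2 fold change was −0.51 ± 0.12 (SE), with a 95% interval of −0.79 to −0.23. *Mcm4* (ENSMUSG00000022673, chromosome 16, 15623897 to 15637400) had 110.3, 125 and 120.4 CPM in the Glis2+/+ libraries and 82.3, 71.1 and 92.4 CPM in the Glis2-/- libraries, again without overlap, and a log2 fold change of −0.53 ± 0.12 (SE). *Mcm5* (ENSMUSG00000005410, chromosome 8, 75109569 to 75128439) had 74.4, 80.4 and 74.5 CPM in the Glis2+/+ libraries and 45.5, 48.9 and 60.7 CPM in the Glis2-/- libraries. Its log2 fold change of −0.56 ± 0.13 (SE) was the lowest of the 6 subunits, and the genotypes did not overlap. *Mcm3* had 92.9, 94.9 and 94.3 CPM in the Glis2+/+ libraries and 62.1, 63.0 and 80.3 CPM in the Glis2-/- libraries. The Glis2+/+ values of *Mcm3* were close together, with an SD of 0.998 CPM, and the log2 fold change was −0.46 ± 0.12 (SE). *Mcm2* had 63.8, 75.4 and 68.9 CPM in the Glis2+/+ libraries and 48.6, 45.1 and 65.1 CPM in the Glis2-/- libraries, and *Mcm7* had 79.2, 93.0 and 63.4 CPM in the Glis2+/+ libraries and 57.1, 59.0 and 67.1 CPM in the Glis2-/- libraries. For these 2 subunits the highest Glis2-/- library, replicate 3, lay above the lowest Glis2+/+ library. Their log2 fold changes were −0.39 ± 0.16 (SE) and −0.36 ± 0.15 (SE), and without Glis2+/+ replicate 2 they were −0.33 and −0.22. That of *Mcm2* was −0.72 with log2(TPM + 1) in limma. The adjusted p of every subunit was 0.906 in edgeR, and in DESeq2 it was 0.158 for *Mcm4*, the smallest of the 38 genes. *Mcm7* contains Mir25 and Mir93 on its strand, which were listed with 0 counts.

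**Figure D2:**
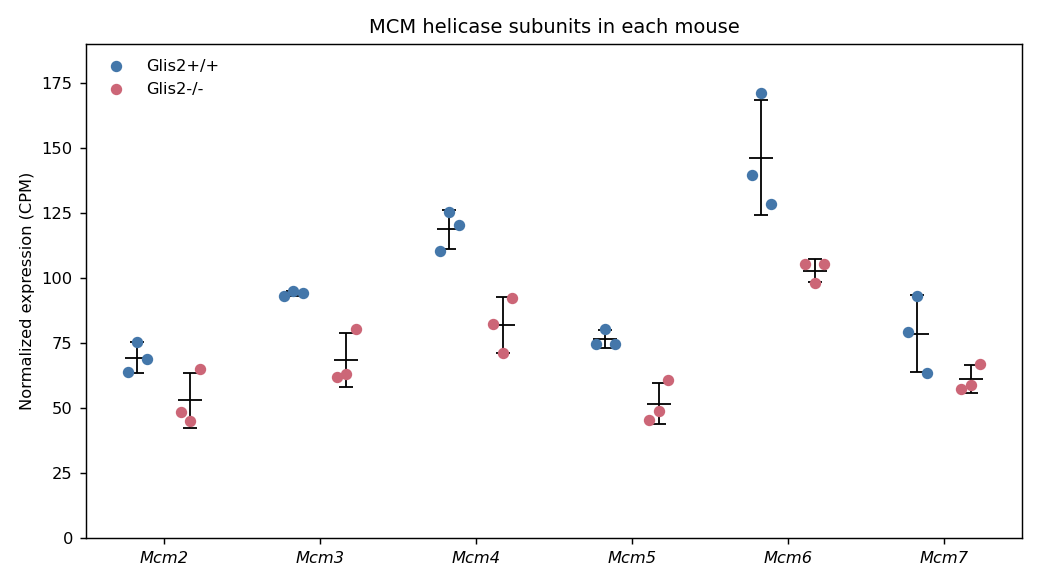
Normalized expression in CPM (vertical axis, from 0) of the 6 MCM subunits in each of the 3 Glis2+/+ and 3 Glis2-/- mice, with points for mice and black bars for the mean ± SD. The Glis2-/- points lie below the Glis2+/+ points for *Mcm3*, *Mcm4*, *Mcm5* and *Mcm6*, and overlap them for *Mcm2* and *Mcm7*.

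Among the 5 licensing factors, 4 had a fold change below 0, and *Orc6* lay at 0.02 by counts. *Cdt1* (ENSMUSG00000006585, chromosome 8, 122568015 to 122573554), which brings the MCM ring to the origin, had 24.0, 29.7 and 20.3 CPM in the Glis2+/+ libraries and 12.1, 19.8 and 18.1 CPM in the Glis2-/- libraries. The values did not overlap, with means of 24.7 ± 4.71 against 16.7 ± 4.05 CPM (Glis2+/+ against Glis2-/-, SD, n = 3 each) and a log2 fold change of −0.56 ± 0.23 (SE). *Orc1* (ENSMUSG00000028587, chromosome 4, 108579423 to 108614833), the largest subunit of the origin recognition complex, had 9.72, 10.4 and 7.48 CPM in the Glis2+/+ libraries and 6.51, 5.68 and 5.34 CPM in the Glis2-/- libraries. It had the largest difference of this role, at −0.65 ± 0.24 (SE) on the log2 scale, also without overlap. *Cdc6*, which joins the origin recognition complex to load the helicase, had 11.4, 8.12 and 9.06 CPM in the Glis2+/+ libraries and 7.91, 5.34 and 7.25 CPM in the Glis2-/- libraries. Its values did not overlap either, although the lowest Glis2+/+ and the highest Glis2-/- value were close, and the log2 fold change was −0.48 ± 0.25 (SE). The other subunit of the origin recognition complex in the list, *Orc6*, had 20.7, 19.1 and 14.2 CPM in the Glis2+/+ libraries and 16.9, 15.5 and 22.4 CPM in the Glis2-/- libraries, which overlap. Its log2 fold change was 0.02 ± 0.21 (SE) with a 95% interval of −0.47 to 0.51, and it lay below 0, at −0.21, on the log2(TPM + 1) scale in limma. *Gmnn*, which encodes geminin, the inhibitor of CDT1, had a log2 fold change of −0.40 ± 0.26 (SE) with overlap between the genotypes, and of −0.18 without Glis2+/+ replicate 2. The adjusted p of the 5 genes lay between 0.906 and 0.997 in edgeR.

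The 6 genes that turn the loaded helicase into a fork had the widest range, from −0.68 to 0.54 on the log2 scale, and low counts, from 60 to 861 per library. *Cdc45* (ENSMUSG00000000028, chromosome 16, 18780447 to 18811987), a part of the active helicase, had 14.3, 12.3 and 8.60 CPM in the Glis2+/+ libraries and 8.71, 5.44 and 7.80 CPM in the Glis2-/- libraries. Glis2+/+ replicate 3 fell within the Glis2-/- values, and the log2 fold change was −0.68 ± 0.28 (SE), or −0.40 with log2(TPM + 1) in limma. The 4 subunits of the GINS complex, which work as 1 complex, lay between −0.62 and 0.54 on that scale. *Gins1* had 8.46, 7.11 and 5.64 CPM in the Glis2+/+ libraries and 3.84, 4.34 and 5.62 CPM in the Glis2-/- libraries, and *Gins2* had 17.0, 18.6 and 19.0 CPM in the Glis2+/+ libraries and 14.3, 10.6 and 16.1 CPM in the Glis2-/- libraries. In both, the genotypes did not overlap, for *Gins1* only narrowly, and the log2 fold changes were −0.62 ± 0.28 (SE) and −0.41 ± 0.20 (SE), the latter −0.26 without Glis2-/- replicate 2. *Gins4*, the GINS subunit with the highest CPM, had 21.4, 20.6 and 19.7 CPM in the Glis2+/+ libraries and 22.4, 19.0 and 17.2 CPM in the Glis2-/- libraries. These values overlap, and its log2 fold change was −0.07 ± 0.16 (SE), with a 95% interval of −0.44 to 0.30. *Gins3* was the gene furthest above 0 of the 38, at 0.54 ± 0.35 (SE), on 60 to 142 counts per library, the lowest counts of the list. It had 3.89, 2.10 and 3.30 CPM in the Glis2+/+ libraries and 5.24, 4.74 and 3.55 CPM in the Glis2-/- libraries, which overlap, and its log2 fold change was 0.33 without Glis2+/+ replicate 2. *Mcm10*, a factor that binds the helicase as the fork starts, had a log2 fold change of −0.36 ± 0.24 (SE), and its highest value was the 30.1 CPM of Glis2+/+ replicate 2. Without that library its log2 fold change was −0.06, and without Glis2+/+ replicate 3 it was −0.55, and it was −0.03 with log2(TPM + 1) in limma. The difference among the GINS subunits was not tested, and the adjusted p of each gene of this role was at least 0.906 in edgeR.

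All 7 polymerase and primase genes had a fold change below 0. *Pola1* (ENSMUSG00000006678, chromosome X, 93304767 to 93632155), the catalytic subunit of the polymerase that starts each strand, had 72.5, 70.1 and 57.9 CPM in the Glis2+/+ libraries and 44.2, 46.6 and 56.1 CPM in the Glis2-/- libraries. The genotypes did not overlap, and the log2 fold change was −0.45 ± 0.14 (SE). *Pole* (ENSMUSG00000007080, chromosome 5, 110286306 to 110337474), the catalytic subunit of the leading strand polymerase, had 59.8, 58.5 and 51.2 CPM in the Glis2+/+ libraries and 31.4, 32.3 and 48.5 CPM in the Glis2-/- libraries. Glis2-/- replicate 3 lay close to the Glis2+/+ values but below them, and the log2 fold change was −0.59 ± 0.18 (SE). *Pold1*, the catalytic subunit of the lagging strand polymerase, had 26.5, 29.8 and 29.0 CPM in the Glis2+/+ libraries and 21.3, 23.2 and 22.3 CPM in the Glis2-/- libraries, a difference without overlap of −0.35 ± 0.13 (SE) on the log2 scale. *Pole2*, the second subunit of the leading strand polymerase, had 12.5, 9.38 and 4.68 CPM in the Glis2+/+ libraries and 4.60, 4.84 and 5.50 CPM in the Glis2-/- libraries. It had the largest log2 fold change of the 38 genes, −0.83 ± 0.36 (SE), but also the largest standard error, and Glis2+/+ replicate 3 lay within the Glis2-/- values. Without Glis2+/+ replicate 1 its log2 fold change was −0.52. *Pole2* shares exonic bases with *Gm49384* on its strand, and reads of these 2 genes may have been divided between them. With their counts summed, the log2 ratio of the genotype means was −0.76. *Pola2*, *Prim1* and *Prim2*, the remaining subunits of the polymerase alpha and primase complex, had log2 fold changes of −0.31 ± 0.17 (SE), −0.34 ± 0.34 (SE) and −0.36 ± 0.17 (SE), and their values overlapped. That of *Prim1* was −0.76 once Glis2-/- replicate 3 was left out, and −0.06 once Glis2+/+ replicate 2 was. The adjusted p lay between 0.906 and 0.946 for the 7 genes in edgeR.

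By summed CPM, the sliding clamp and its loader stood closest to the Glis2+/+ level. Their summed level was 148, 149 and 142 CPM in the Glis2+/+ libraries and 131, 126 and 138 CPM in the Glis2-/- libraries, 89.9% of the Glis2+/+ mean, against 71.8% for the MCM subunits. *Pcna* (ENSMUSG00000027342, chromosome 2, 132249162 to 132253314), the clamp, had 53.8, 57.8 and 62.4 CPM in the Glis2+/+ libraries and 55.9, 52.7 and 56.8 CPM in the Glis2-/- libraries. The values overlap, and the log2 fold change was −0.07 ± 0.11 (SE) with a 95% interval of −0.32 to 0.17, on at least 1400 counts in each library. It depended on the scale, at −0.34 with log2(TPM + 1) and −0.36 with log2(TPM + 0.1) in limma, both below that interval. The processed pseudogene *Pcna-ps2* held 2647 counts over the 6 libraries beside 9697 of *Pcna*, so that the division of reads between them is uncertain. The pseudogene stood at 16.3, 23.1 and 16.5 CPM in the Glis2+/+ and 11.9, 11.1 and 13.5 CPM in the Glis2-/- libraries, without overlap. With both summed, the log2 ratio of the genotype means was −0.19, compared with −0.07 for *Pcna* alone. *Rfc2* and *Rfc3*, subunits of the clamp loader, had log2 fold changes of −0.04 ± 0.12 (SE) and −0.14 ± 0.22 (SE), the latter between −0.40 without Glis2-/- replicate 3 and −0.04 without Glis2-/- replicate 1. With log2(TPM + 1) in limma these 2 genes lay at −0.13 and −0.29. *Rfc5*, also a subunit of the loader, had 28.7, 24.4 and 21.5 CPM in the Glis2+/+ libraries and 20.5, 16.0 and 20.0 CPM in the Glis2-/- libraries, without overlap and with a log2 fold change of −0.40 ± 0.18 (SE). With log2(TPM + 1) in limma *Rfc5* moved the other way, to −0.16. *Rfc4* had 11.9, 12.8 and 11.3 CPM in the Glis2+/+ libraries and 6.47, 11.7 and 7.35 CPM in the Glis2-/- libraries. Its fold change of −0.49 ± 0.26 (SE) was the largest of this role on the log2 scale, its values overlapped, and without Glis2-/- replicate 2 it was −0.80. None of the 5 genes had an unadjusted p of at most 0.05 in edgeR, where 5.32% of all genes had one, so so few genes say little here. Their adjusted p lay between 0.906 and 0.985 in edgeR. In each library the summed MCM level was divided by the summed level of the clamp and its loader. The ratio was 3.78, 4.29 and 3.88 in the Glis2+/+ libraries and 3.06, 3.05 and 3.42 in the Glis2-/- libraries, without overlap. This ratio was formed after the values were seen and is given with no test.

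For the genes that finish the lagging strand, *Lig1* (ENSMUSG00000056394, chromosome 7, 13277283 to 13311433), the ligase that seals Okazaki fragments, had 112, 129 and 87.2 CPM in the Glis2+/+ libraries and 74.4, 73.6 and 80.1 CPM in the Glis2-/- libraries. The 3 Glis2-/- values were close together and lay below all Glis2+/+ values, with means of 109.6 ± 21.2 against 76.0 ± 3.54 CPM (Glis2+/+ against Glis2-/-, SD, n = 3 each) and a log2 fold change of −0.53 ± 0.15 (SE). *Fen1*, the nuclease that trims the fragments, had a log2 fold change of −0.18 ± 0.14 (SE) with overlap. Both had an adjusted p of at least 0.906 in edgeR.

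The 4 genes of nucleotide supply all had a fold change below 0. *Rrm1* (ENSMUSG00000030978, chromosome 7, 102441695 to 102469771), the large subunit of ribonucleotide reductase, had 115, 145 and 103 CPM in the Glis2+/+ libraries and 84.3, 83.3 and 108 CPM in the Glis2-/- libraries. Glis2-/- replicate 3 lay above the lowest Glis2+/+ library, and the log2 fold change was −0.39 ± 0.16 (SE), or −0.24 without Glis2+/+ replicate 2. *Rrm2*, the subunit whose level is limiting in S phase, had 41.5, 37.5 and 35.0 CPM in Glis2+/+ and 27.4, 18.7 and 35.6 CPM in Glis2-/- libraries. Glis2-/- replicate 3 lay above the lowest Glis2+/+ value, and the log2 fold change was −0.48 ± 0.22 (SE), between −0.74 without that library and −0.28 without Glis2-/- replicate 2. *Tk1*, the thymidine kinase of the salvage pathway, had 21.3, 23.1 and 19.6 CPM in the Glis2+/+ libraries and 16.0, 11.6 and 17.8 CPM in the Glis2-/- libraries. Its genotypes did not overlap, with a log2 fold change of −0.50 ± 0.20 (SE), the largest of this role. *Tyms*, which makes thymidylate, had 29.8, 30.2 and 23.3 CPM in the Glis2+/+ libraries and 23.0, 21.4 and 21.7 CPM in the Glis2-/- libraries. The values did not overlap, though by a small margin, and the log2 fold change was −0.34 ± 0.15 (SE). The adjusted p of each of the 4 genes was 0.906 in edgeR.

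Of the 3 genes that restore chromatin and its methylation behind the fork, *Uhrf1* (ENSMUSG00000001228, chromosome 17, 56303321 to 56323486), which brings the maintenance methyltransferase to newly copied DNA, had 117, 116 and 77.2 CPM in the Glis2+/+ libraries and 76.8, 68.6 and 93.2 CPM in the Glis2-/- libraries. Glis2+/+ replicate 3 lay within the Glis2-/- values, and the log2 fold change was −0.38 ± 0.18 (SE). *Chaf1a*, the large subunit of the chromatin assembly factor that deposits histones on new DNA, had 51.0, 53.5 and 53.2 CPM in the Glis2+/+ libraries and 42.6, 40.1 and 44.1 CPM in the Glis2-/- libraries. Its genotypes did not overlap, and its log2 fold change of −0.32 ± 0.11 (SE) had the smallest standard error of the 38 genes. With log2(TPM + 1) in limma, however, it was −0.17. *Chaf1b*, its partner, had 21.1, 21.6 and 22.2 CPM in the Glis2+/+ libraries and 12.2, 15.0 and 21.2 CPM in the Glis2-/- libraries. The Glis2+/+ values were close together and the Glis2-/- values spread widely, from below into the Glis2+/+ range, with a log2 fold change of −0.42 ± 0.22 (SE) that was −0.68 without Glis2-/- replicate 3 and −0.26 without Glis2-/- replicate 1. Their adjusted p lay between 0.906 and 0.917 in edgeR. *Chaf1a* shares 4648 exonic bases with *Ubxn6* on the opposite strand, and 13 of the 38 genes share some with an opposite gene. The library kit keeps the strand, but it is not stated whether the quantification used it, so reads of such pairs may not be told apart.

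Levels could be compared between genes only per transcript length, as TPM. On this scale *Lig1* had the highest mean over the 6 libraries, at 14.1 TPM, followed by *Pcna* at 13.3, *Rrm1* at 12.9 and *Mcm2* at 11.2 TPM. The lowest were *Cdc6* at 0.667 and *Gins3* at 0.590 TPM. This order pools both genotypes. In the Glis2-/- libraries alone, *Pcna* at 11.7 TPM stood above *Lig1* at 10.6 TPM, and *Cdc6* at 0.502 TPM below *Gins3* at 0.696 TPM. Of the 38 genes, 33 lay above the median of all tested genes, 1.26 TPM. A single annotated microRNA gene, Gm23935, held 83.0% to 85.7% of the TPM of each library, which lowers the TPM of every other gene. Summed TPM of the 38 genes was 200.0, 238 and 211 in the Glis2+/+ libraries and 154, 124 and 155 in the Glis2-/- libraries, and the genotypes were separate.

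The genes also varied together between mice of the same genotype. Glis2+/+ replicate 3 was the lowest of the 3 Glis2+/+ libraries for 26 of the 38 genes, against 31.7% of all genes tested. Glis2-/- replicate 3 was the highest of the 3 Glis2-/- libraries for 24 genes, against 35.6% of all genes. The 38 genes thus do not give 38 independent measurements of the genotype. Over all 6 libraries, the highest value of a gene was in a Glis2+/+ library for 34 genes, most often replicate 2 (18 genes), against 49.4% of all genes. The lowest value was in a Glis2-/- library for 34 genes, in replicate 2 for 17 and in replicate 1 for 15, against 46.6% of all genes. The mean log2 CPM of the 38 genes was 4.96, 4.98 and 4.71 in the Glis2+/+ and 4.46, 4.40 and 4.65 in the Glis2-/- libraries, and 0.139 was its pooled SD between mice of 1 genotype. With each mouse left out in turn, the median log2 fold change lay between −0.54 and −0.34 and at least 36 of the 38 genes stayed below 0. The log2 fold change of 16 single genes moved by over 1.5 times when 1 of the mice was left out, 4 of which (*Orc6*, *Pcna*, *Rfc2* and *Gins4*) lay within 0.1 of 0 to begin with.

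**Figure D3:**
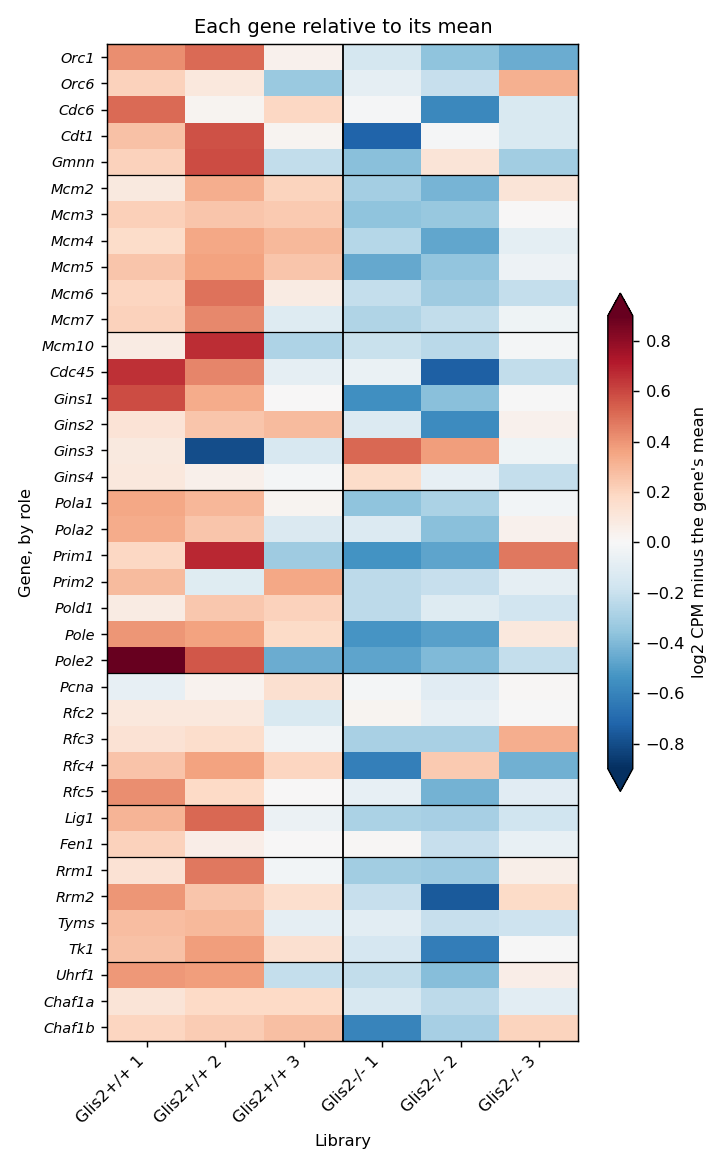
Log2 CPM of each of the 38 genes (rows, grouped by role, with lines between roles) minus the gene's own mean over the 6 libraries (columns, 3 Glis2+/+ then 3 Glis2-/-), red above and blue below the mean, with colours saturated beyond 0.9 in either direction. Red fills most of the Glis2+/+ columns 1 and 2 and blue the Glis2-/- columns 1 and 2, while replicate 3 of both genotypes is paler.

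Genes of replication outside the 38 were followed as a second list of 58 genes, of which 57 were tested. Fold changes below 0 were obtained for 46 and above 0 for 11, with a median of −0.28. An unadjusted p of at most 0.05 was obtained for 14 genes below 0 and 0 above 0, against 2.33% and 2.99% of all genes, and 0 were called by edgeR or DESeq2. The genotypes did not overlap for 16 genes, each lower in Glis2-/- cells, a share to be read against the 5.5% of all genes. The range ran from −0.81 for *Asf1b*, a histone chaperone, to 0.34 for *Pold4*, a small polymerase subunit, which are named as the ends of the range after their values were seen. The summed level was 2372 to 2856 CPM in the Glis2+/+ and 2080.5 to 2251 CPM in the Glis2-/- libraries.

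The list of 20 proliferation markers, mostly genes of mitosis, had 20 of 20 fold changes below 0, against 48.4% of all genes, and a median of −0.52. An unadjusted edgeR p of at most 0.05 was obtained for 13 of them, all below 0, against 2.33% of all genes. The genotypes did not overlap for 6, each lower in Glis2-/- cells, against 5.5% of all genes. In either tool 0 were called, against 0% of all genes in edgeR and 0.121% in DESeq2. *Mki67*, a protein of the chromosomes of cycling cells, had 924, 1086 and 727 CPM in the Glis2+/+ libraries and 551, 568 and 705 CPM in the Glis2-/- libraries. The genotypes did not overlap, and the log2 fold change was −0.59 ± 0.16 (SE). The adjusted p was 0.906 in edgeR and 0.188 in DESeq2. *Top2a*, the topoisomerase that untangles copied chromosomes and a gene of both lists, had 237, 318 and 221 CPM in the Glis2+/+ libraries and 163, 140.3 and 205 CPM in the Glis2-/- libraries, again without overlap, and a log2 fold change of −0.61 ± 0.18 (SE). The summed marker level was 1616 to 2489 CPM in the Glis2+/+ and 1272 to 1621 CPM in the Glis2-/- libraries, which just overlap, since Glis2-/- replicate 3 and Glis2+/+ replicate 3 stood at nearly the same level. Divided by the CPM of *Mki67* in the same library, the summed level of the 38 replication genes was 1.80, 1.66 and 2.04 in Glis2+/+ and 2.17, 2.02 and 1.98 in Glis2-/- libraries. These ratios, also formed after the values were seen, overlap between the genotypes.

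**Figure D4:**
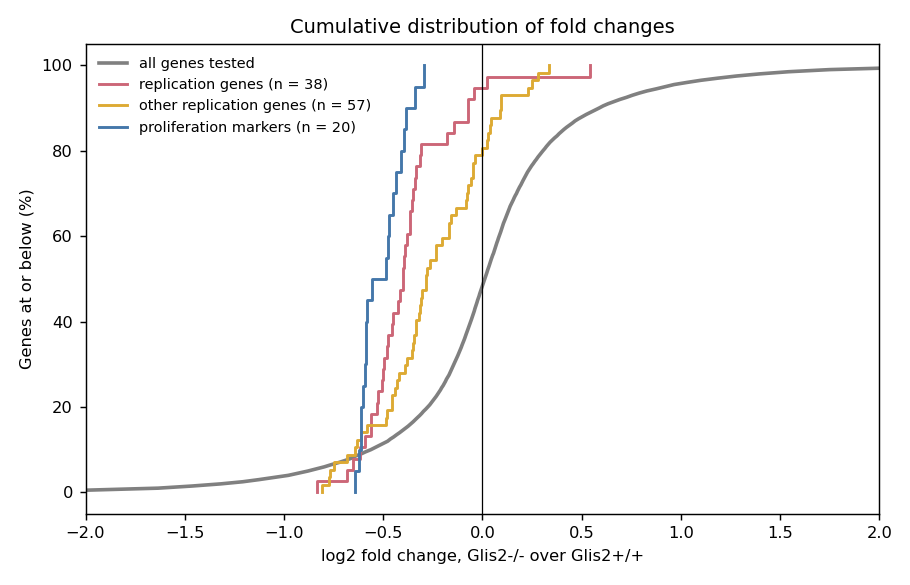
Cumulative share of genes (vertical axis, percent) at or below a log2 fold change (horizontal axis, shown from −2 to 2) for all genes tested, the 38 replication genes, the other replication genes and the proliferation markers. The median lies at 0.01 for all genes, −0.40 for the 38 genes, −0.28 for the other replication genes and −0.52 for the proliferation markers.

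Markers of some cell types differed between the libraries, and their part in the result was not tested. The 10 basal markers, such as *Krt14* and *Acta2*, summed to 4683 to 6011 CPM in the Glis2+/+ and 6398 to 7696 CPM in the Glis2-/- libraries and did not overlap, with 10 of 10 fold changes above 0 and 6 at an unadjusted p of at most 0.05, against 2.99% of all genes with such a p and a fold change above 0. The smallest adjusted p of the marker lists in DESeq2 was that of the basal marker *Tagln*, named after its values were seen, at 0.0304 (edgeR 0.849). Its CPM was 264, 228 and 256 in the Glis2+/+ and 357, 348 and 419 in the Glis2-/- libraries, and its DESeq2 log2 fold change, 0.579 before and 0.50 after shrinkage by apeglm, lay under the threshold of 0.58. The 15 luminal markers summed to 4661 to 8231 and 4519 to 8206 CPM, which overlap, with 6 of 15 below 0 and a median of 0.04. The 9 leukocyte markers stood low, at 31.1 to 66.4 and 72.4 to 132 CPM, but did not overlap, with 8 of 9 above 0. Among them *Cd74*, which serves antigen presentation, was the only gene of the marker lists that passed both thresholds in DESeq2 (adjusted p = 0.0436 in DESeq2, 0.906 in edgeR). The 9 fibroblast markers summed to 2376 to 7860.0 and 2668 to 6043 CPM, which overlap, with 7 of 9 fold changes below 0 and a median of −0.37 on the log2 scale. The 5 adipocyte markers, at 52.3 to 309 and 94.8 to 263 CPM, also overlapped, with 4 of 5 below 0 and a median of −0.10. The 7 endothelial markers, at 152 to 717 and 240.4 to 734 CPM, overlapped with 3 of 7 below 0 and a median of 0.03. No marker of these lists was at 0 in all libraries.

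**Figure D5:**
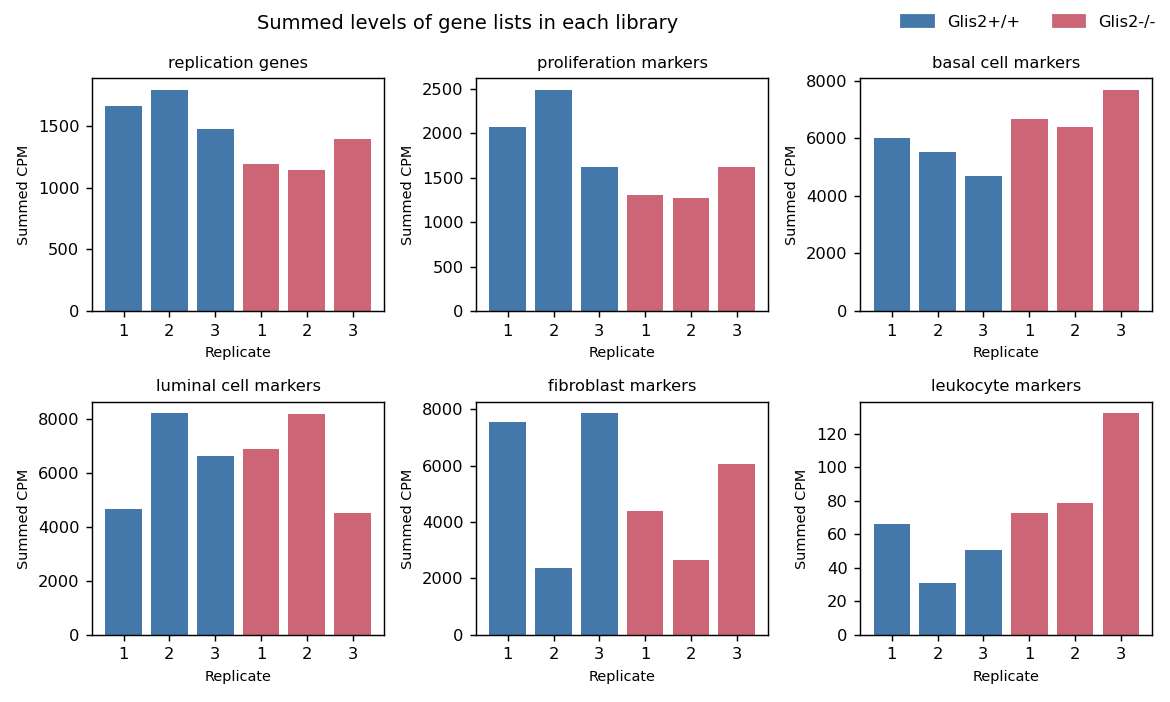
Summed CPM (vertical axes, each from 0) of the replication genes and of 5 other gene lists in each library, replicates 1 to 3 of Glis2+/+ in blue and of Glis2-/- in red. The replication genes stand at 1481 CPM or more in Glis2+/+ and at 1394 CPM or less in Glis2-/- libraries, while basal and leukocyte markers are higher in each Glis2-/- library and luminal and fibroblast markers overlap.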

How the data were processed

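RNA sequencing libraries of sorted mammary epithelial cells from 3 Glis2+/+ and 3 Glis2-/- mice were analysed. Per the labels and the methods, the authors made the deposited estimated counts with Salmon 1.2.1 on a transcriptome of mm10 with the genome as a decoy, assembled them per gene with tximport, and deposited TPM as log2 values after adding 1. Libraries were made from a small RNA input with many PCR cycles, and molecular identifiers are not mentioned, so counts are not counts of molecules. Symbols and positions came from GENCODE M21 (GRCm38).

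Counts were filtered by filterByExpr, normalized by TMM and tested over 21236 genes by the quasi-likelihood method of edgeR 4.0.16 in R 4.3.3, with p adjusted by Benjamini-Hochberg. Standard errors were derived from the fold change and its F statistic, and 95% intervals use the degrees of freedom of the fit. The functions were tested on simulated data. The 38 genes, the other lists and the tests were chosen with earlier results of these data known, and no test was made over a list. Values in every library are given for the gene of highest CPM and of largest fold change in each role, and for genes with an unadjusted p of at most 0.05 or without overlap. Alternatives were DESeq2 1.42.0 with apeglm 1.24.0, its size factors in edgeR, no filter, at least 10 counts in every sample, log2 TPM with offsets of 1 and 0.1 in limma 3.58.1, no fold threshold, a replicate block and each mouse left out. No library was a copy of another (chi-square per degree of freedom of at least 19.0).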

Additional observations from a re-analysis of the deposited data

How the results depend on the processing

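The 38 replication genes gave 0 calls in each of the 13 refits and without a fold threshold. The smallest adjusted p of any of the 38 was 0.158 over these fits, in DESeq2. The number called among all genes, 0 in edgeR (1130 at an unadjusted p of at most 0.05), was 45 with DESeq2 and apeglm, 40 without a filter on low counts and 1 with log2(TPM + 0.1) in limma, and 0 with each mouse left out. With a mouse left out, the median log2 fold change of the 38 genes lay between −0.54 without Glis2-/- replicate 3 and −0.34 without Glis2-/- replicate 2. Leaving out Glis2-/- replicate 3 moved it by almost the whole spread between mice. It moved by more than that spread only with log2(TPM + 0.1) in limma, to −0.63, where the median of all genes was −0.14. The number of the 38 genes above 0 was 2, and 1 with either log2 TPM scale and between 1 and 2 with a mouse left out. Of 494 refits of single genes 490 kept their direction, and the 4 that reversed were all of *Orc6* (0.02), at −0.21 with log2(TPM + 1), −0.26 with log2(TPM + 0.1), −0.12 without Glis2+/+ replicate 3 and −0.17 without Glis2-/- replicate 3, while the highest value with a mouse left out was 0.13, without Glis2-/- replicate 2. The log2 fold change moved by over 1.5 times for 16 of the 38 genes with log2(TPM + 1), for 20 with log2(TPM + 0.1) and for 16 with a mouse left out. The causes were not tested. The replicate numbers were not treated as pairs in the main fit. Across genes, which are not replicates, deviations from the genotype mean correlated between mice of the same number at −0.02, 0.17 and 0.02. Replicate 2 was the lowest library of each genotype for the summed fibroblast, endothelial and adipocyte markers. Whether mice of the same number shared a batch was not tested. With the replicate block 0 genes were called, the median of the 38 genes was −0.40, and 36 stayed below 0. The median standard error of the 38 genes was 0.18 on the log2 scale, with 3 mice per genotype.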
